A study of Mus musculus with 6 samples.

Results

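Expression of 36 genes of microglia and of the complement system was examined in the pre-limbic cortex (PLc) of mice after sub-chronic ketamine. The genes were given by symbol, each was kept if its mean over the 6 mice was at least 10 normalized counts, and all 36 were found among the 37620 genes listed and passed that minimum. C3 passed it, at a mean of about 13, only through saline mouse 10. The PLc is a medial division of prefrontal cortex, and its RNA was sequenced in 3 saline mice and 3 ketamine mice, with 1 library for each mouse. All 6 were C57Bl/6 mice of 9 weeks with no transgene or deletion named in the labels. Ketamine mice received ketamine at 30 mg/kg (i.p.) on each of 5 days, saline mice received the vehicle by the same route, and the PLc was dissected 2 days after the last injection. Mice 1, 6 and 10 received saline and mice 3, 5 and 9 received ketamine. Ketamine blocks NMDA receptors, and the libraries were made to look for molecular differences in this cortex after its washout. The comparison here is of the immune genes.

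Microglia are the resident macrophages of the brain, seeded from the yolk sac and maintained by the receptor Csf1r. In the healthy cortex they carry a set of surface receptors, among them Cx3cr1 and P2ry12, that sense signals from neurons and are known to be lost when microglia become activated. Microglia make the C1q complex that starts the classical complement cascade, while C4 and C3, the next components, are made by astrocytes and other glia and rise in inflammation or injury. In development, complement tags synapses that microglia then engulf.

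PU.1, the transcription factor encoded by Spi1, is required for microglia to form and binds purine-rich sites. Its core AGGAAGT was searched on both strands in promoters from RefSeq (GRCm38.p6, from 250 bases before to 50 bases after a gene's start), which were matched for 26 of the 36 genes. The core was found in 9 of these 26 (34.6%) and in 2886 of 27025 genes with a promoter in the same source (10.7%). GAGGAAGT, which contains the core, was found in 4 of 26 (15.4%, against 3.7% of all promoters), and the composite motif of PU.1 and IRF factors was found in Cd68 alone among the 26 (3.8%, against 3.2%). Genes with the core include C1qb, C1qc, Lyz2 and Fcrls, which were highest in ketamine mouse 9, and Inpp5d, which was lowest there. Windows of 30 bases follow for C1qb, C1qc and Lyz2, chosen with their values known, and for the microglial surface genes P2ry12 and Fcrls. Each is read 5′ to 3′ on the gene's own strand, and the capitals mark the core or its reverse complement ACTTCCT:
C1qb: caggacctgaaACTTCCTgagggcagcagg
C1qc: ggacggcagacACTTCCTcattttggcaca
Lyz2: gatcggtaggaACTTCCTgttttgcacaca
P2ry12: agctaacaagaAGGAAGTtccccagtgaca
Fcrls: acaactttgccACTTCCTttttttcctatt
All 5 genes lie on the minus strand of GRCm38.p6. The windows are chr4:136886235-136886264 for C1qb, chr4:136893091-136893120 for C1qc, chr10:117282354-117282383 for Lyz2, chr3:59263019-59263048 for P2ry12 and chr3:87263581-87263610 for Fcrls. The first capital lies 53, 195, 100, 52 and 75 bases before the start of these genes in that order. A match of letters does not show binding, which was not measured here.

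The libraries held between 26273436 and 32643726 reads assigned to genes. The deposited values, here called normalized counts, are counts scaled by the size factor of the library, which lay between 0.911 and 1.10. Pan-neuronal genes and those of cortical excitatory neurons were detected in every mouse. Some libraries stood apart from the rest. Relative to the saline mean, the mean log2 level of 18 striatal markers was 3.14, 2.11 and -0.04 in mice 3, 5 and 9 of the ketamine group, and that of 14 olfactory bulb markers was 2.26, 1.55 and 3.79, with a highest saline value of 0.49. Saline mouse 10 had the highest level of all 14 oligodendrocyte markers. Results on the microglia and complement genes are therefore given for each mouse, and with mouse 9 or mouse 10 left out where that matters.

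For the 36 genes, no difference between the PLc of ketamine and saline mice passed a test. Of the 36 genes, 17 were higher and 19 lower with ketamine, at a median log2 fold change of -0.01, beside a median of -0.01 and 47% higher over all 16127 genes tested. With limma on log2(normalized count + 1), 0 of the 36 had an adjusted p under 0.05, and limma called 0 of all genes tested (0%). On the reads, edgeR called 0 genes (0%) and DESeq2 called 182 (1.13%), 145 higher in ketamine (0.899%) and 37 lower (0.229%), and neither called any of the 36. At an unadjusted p under 0.05, limma had 937 of all genes (5.81%), and 0 of the 36 passed that by limma, edgeR or DESeq2. The smallest adjusted p among the 36 was 0.865 by limma, for Cd68.

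How large a difference could have been missed is given by the confidence intervals. The log2 fold change was within 0.25 of 0 for 31 of the 36 genes, beside 68.5% of all genes. The interval at 95% lay between -1 and 1, a 2-fold change either way, for 32 of the 36, and the median distance from estimate to limit was 0.41, beside 0.50 over all genes. C3, C4b, Lyz2 and Tlr2 had wider limits, so a 2-fold difference in these 4 lies within the interval from 3 mice a group. The highest mouse was less than 1.5 times the lowest for 18 of the 36 (50%), beside 37.93% of all genes. It was more than 2 times the lowest for 5 of the 36. In tissue RNA, fewer microglia and less RNA per microglial cell cannot be told apart.

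**Figure D1:**
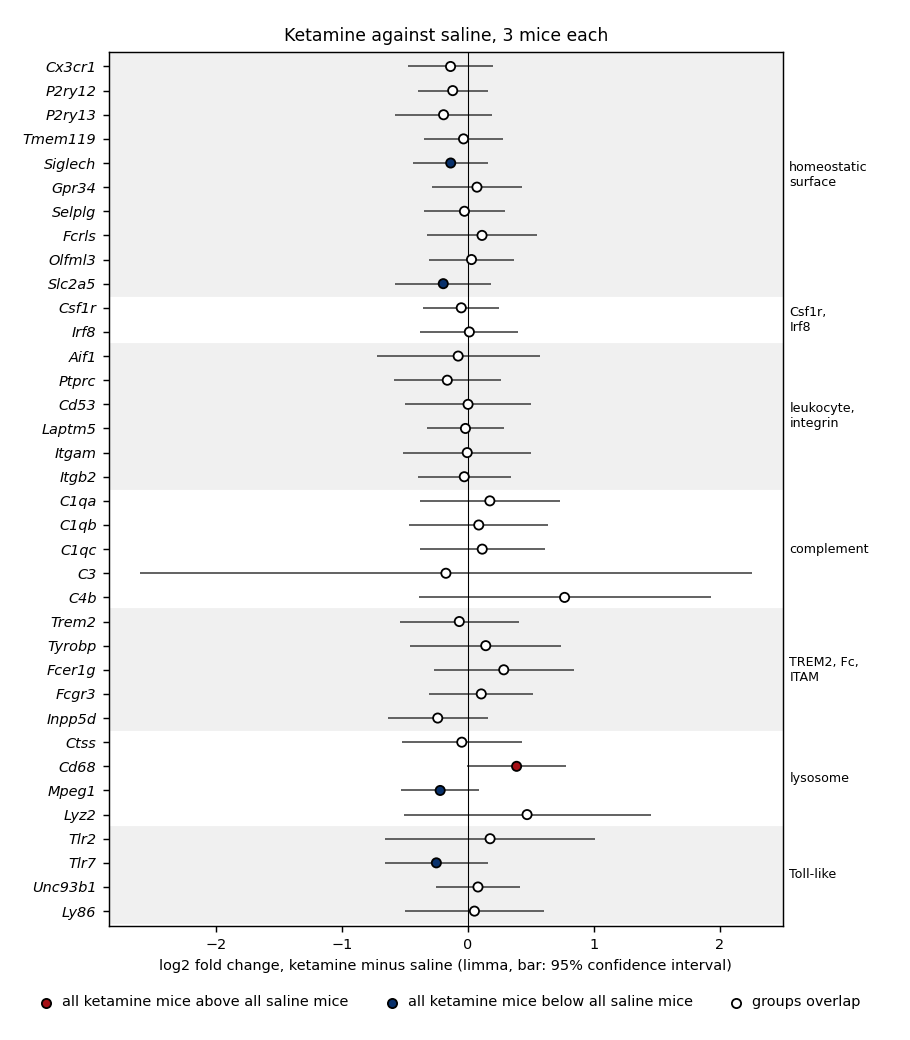
Log2 fold change of each of the 36 genes, ketamine minus saline, on the horizontal axis, with genes on the vertical axis grouped by role. Points are limma estimates from 3 saline and 3 ketamine mice and bars are 95% confidence intervals, red where all ketamine mice were above all saline mice (1 gene, Cd68), blue where all were below (4 genes) and white where the groups overlapped. The bars of C3, C4b, Lyz2 and Tlr2 reach past a log2 change of 1.

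All ketamine mice were above all saline mice for 1 of the 36 genes, Cd68, where 5.69% of all genes tested had this pattern. The reverse, with every ketamine mouse under every saline mouse, held for 4, namely Siglech, Slc2a5, Mpeg1 and Tlr7, where the background was 4.66%. Together these are 5 of 36, beside 10.3% of all genes. The exact permutation test (two-sided) gave p = 0.1 for each of the 5, the smallest value that 3 mice against 3 allow. Any gene whose groups do not overlap receives this value, so it adds nothing to the lack of overlap.

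Levels differed widely between the genes. Per kilobase of transcript, averaged over the 6 mice, Ctss was first with 1272 normalized counts per kb, followed by C1qb with 1077, C1qa with 1046 and C1qc with 854. Ctss encodes cathepsin S, a lysosomal protease, and C1qa, C1qb and C1qc encode the A, B and C chains of C1q. Compared within each mouse, Ctss was first in 5 of the 6 and the third in ketamine mouse 9, where C1qa was first. C1qc was the fourth in all 6 mice, while C1qa and C1qb changed places between mice. Csf1r was the fifth with 615 normalized counts per kb. The lowest were Ptprc with 18.7, Tlr2 with 12.5 and C3 with 2.55 normalized counts per kb.

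**Figure D2:**
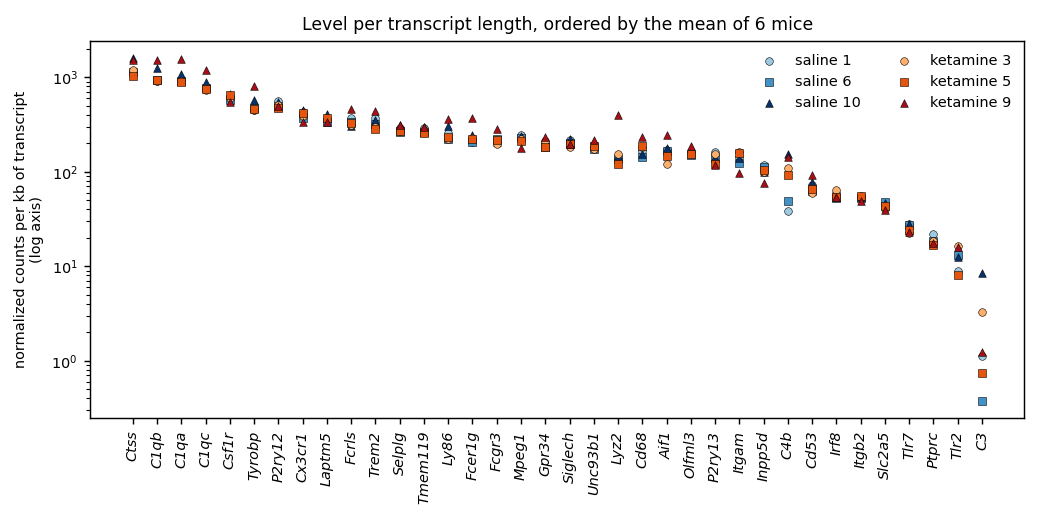
Normalized counts per kilobase of transcript (log axis) for the 36 genes, ordered by their mean over the 6 mice. Each point is a mouse, in blue for saline and in orange or red for ketamine. Ctss and the 3 C1q genes are highest, C3 is lowest, and the mice are furthest apart for C3, C4b and Lyz2.

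Among the surface genes of resting microglia, 0 of 10 were called by limma, edgeR or DESeq2. Of these, 3 were higher and 7 lower with ketamine, at a median log2 fold change of -0.08 and a range from -0.20 to 0.11. Cx3cr1, the receptor for the neuronal chemokine fractalkine, had 1585, 1378 and 1692 normalized counts in mice 1, 6 and 10 of the saline group and 1444, 1544 and 1244 in mice 3, 5 and 9 of the ketamine group. Its groups overlapped, with a log2 fold change of -0.14 (95% confidence interval -0.48 to 0.20, adjusted p = 0.999 by limma). P2ry13, a receptor for ADP, had 410, 356 and 361 normalized counts in the saline group and 389, 307 and 296 in the ketamine group, a log2 fold change of -0.19 (interval -0.58 to 0.19). The highest ketamine mouse, number 3, was above saline mice 6 and 10.

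Siglech belongs to the Siglec family of lectins and is used as a marker of microglia. It had 493, 464 and 508 normalized counts in the saline group and 425, 457 and 450.5 in the ketamine group. The groups did not overlap, although the gap between the nearest mice, saline 6 and ketamine 5, was about 7 normalized counts. Its log2 fold change was -0.14 (95% confidence interval -0.44 to 0.16, adjusted p = 0.999 by limma). Slc2a5, the fructose transporter GLUT5 that marks microglia in the brain, had 144, 152 and 147 normalized counts in the saline group and 126, 136 and 123 in the ketamine group. Every ketamine mouse was under every saline mouse, with a log2 fold change of -0.20 (95% confidence interval -0.58 to 0.18, adjusted p = 0.999 by limma). The other 6 had log2 fold changes from -0.12 for P2ry12, the ADP receptor that directs microglial processes to injury, to 0.11 for Fcrls, an Fc receptor-like scavenger receptor. Between them lay Selplg, the ligand of P-selectin, at -0.03, Olfml3, a secreted glycoprotein, at 0.03 and Gpr34, a receptor for lysophosphatidylserine, at 0.07. Without mouse 9, Fcrls, Olfml3 and Gpr34 were at -0.07, -0.05 and -0.02. Tmem119, a membrane protein of microglia and not of blood macrophages, had a mean of 636 ± 47.3 normalized counts with saline and 621 ± 42.96 with ketamine (SD, n = 3 each), and its log2 fold change was -0.04. P2ry12 and P2ry13 lie side by side on chromosome 3 of mm9, within Med12l on the opposite strand, and share no exon bases with it.

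Csf1r, the receptor for the growth factors CSF1 and IL-34, and Irf8, a transcription factor of myeloid cells, had overlapping groups. Csf1r had 2987, 2721 and 3115 normalized counts in the saline group and 2862, 3073 and 2576 in the ketamine group. Both the lowest and the second highest of the 6 values came from ketamine mice, and the log2 fold change was -0.05 (95% confidence interval -0.35 to 0.25, adjusted p = 0.999 by limma). Csf1r shares 871 exon bases with Hmgxb3 on the opposite strand, and the strand setting of the counting is not given in the sources used here, so reads of Hmgxb3 may be included. Irf8 had 168, 149.6 and 166 normalized counts in the saline group and 180.1, 153 and 154 in the ketamine group. Its log2 fold change was 0.01 (interval -0.38 to 0.40).

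Among 6 genes shared by microglia with other leukocytes, 1 was higher and 5 were lower with ketamine, at a median log2 fold change of -0.02. Laptm5, a lysosomal membrane protein of blood-derived cells, had 900.4, 869 and 1049 normalized counts in the saline group and 929.9, 962 and 879 in the ketamine group. The ketamine mice lay within the saline range. Ptprc, the leukocyte phosphatase CD45, had 128, 108 and 109 normalized counts in the saline group and 109, 96.9 and 102 in the ketamine group, a log2 fold change of -0.16 (interval -0.59 to 0.26). Saline mouse 1 was the highest and the other 5 mice lay close together. Aif1, which encodes the microglial marker IBA1, had 149, 146 and 157 normalized counts in the saline group and 106, 127 and 215 in the ketamine group. Ketamine mice 3 and 5 were below, and mouse 9 above, every saline mouse, and the log2 fold change was -0.08 (interval -0.73 to 0.57). Without mouse 9 it was -0.37. Itgam, the CD11b chain of complement receptor 3, had the opposite order, and was chosen for this after its values were seen. It had 686, 598 and 679 normalized counts in the saline group, 775 and 757 in ketamine mice 3 and 5, and 469 in mouse 9, and its log2 fold change of -0.01 was 0.23 without that mouse. Itgb2, the beta chain that pairs with it, had a log2 fold change of -0.03, and Cd53, a tetraspanin of leukocytes, one of 0.0007 that was -0.18 without mouse 9.

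**Figure D3:**
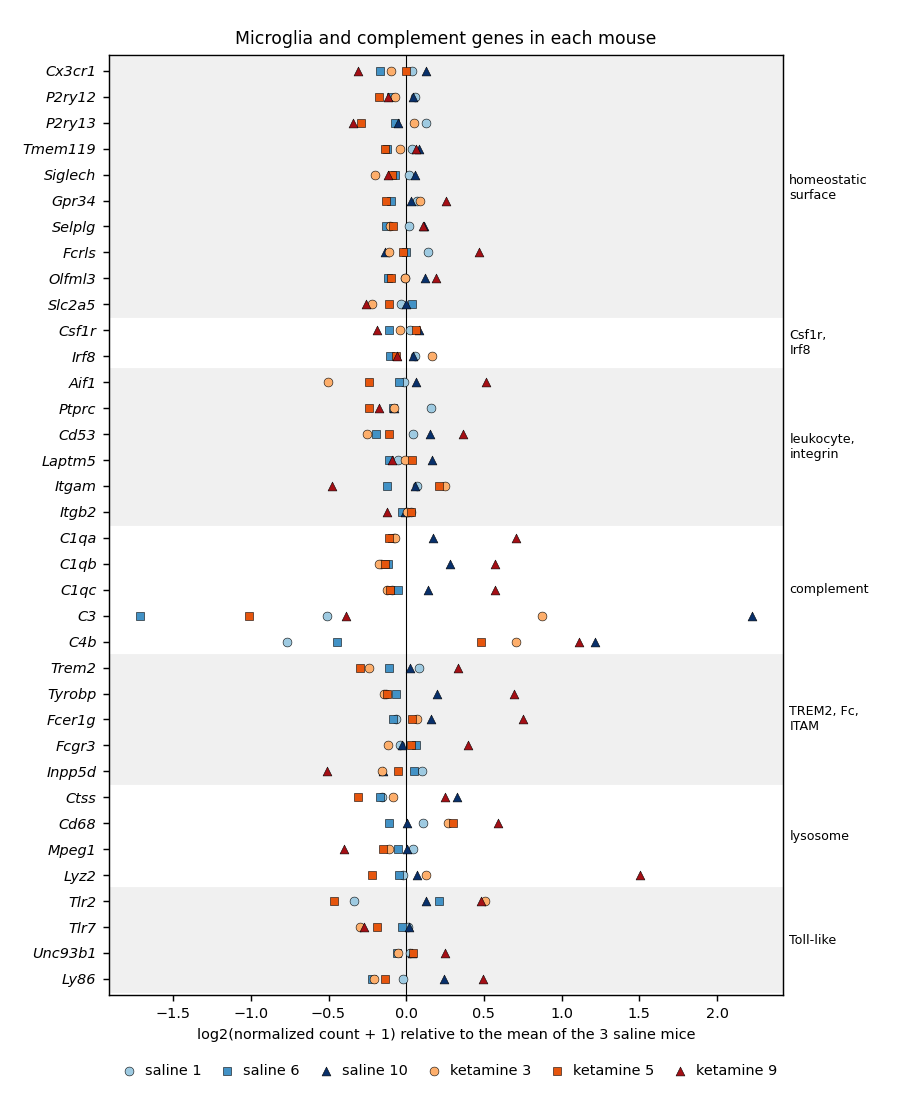
Log2(normalized count + 1) of the 36 genes in each mouse, relative to the saline mean (vertical line at 0), with genes grouped by role. Points in blue are saline mice and points in orange or red are ketamine mice. Ketamine mouse 9 (dark red triangle) lies to the right for the C1q genes, Tyrobp, Fcer1g and Lyz2 and to the left for Itgam, Inpp5d and Mpeg1, and saline mouse 10 lies to the right for C3 and C4b.

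The complement components were also not called, and 4 of 5 were higher with ketamine, at a median log2 fold change of 0.11 that was -0.09 without mouse 9. The genes of the C1q chains lie next to one another on chromosome 4 (mm9, minus strand), from 136436044 to 136454718. C1qa (ENSMUSG00000036887) had 945.5, 939 and 1129 normalized counts in the saline group and 951, 928 and 1632 in the ketamine group. Ketamine mice 3 and 5 lay at the level of saline mice 1 and 6, and mouse 9 was 1.67 times the mean of the other 5 mice. The log2 fold change was 0.17 (95% confidence interval -0.38 to 0.73, adjusted p = 0.999 by limma), and without mouse 9 it was -0.09. C1qb (ENSMUSG00000036905) had 997, 1026 and 1354 normalized counts in the saline group and 986, 1016 and 1653 in the ketamine group, a log2 fold change of 0.09 that was -0.16 without mouse 9. C1qc, chosen after its values were seen as the remaining chain, had 914, 936 and 1073 normalized counts in the saline group and 891, 903 and 1445 in the ketamine group. All 3 chains thus had the same pattern, with mouse 9 highest and saline mouse 10 next.

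C4b (ENSMUSG00000073418), the fourth complement component, lies on chromosome 17 (mm9, minus strand) between 34865325 and 34880827. It had 209, 262 and 830.2 normalized counts in mice 1, 6 and 10 of the saline group and 583, 499 and 773 in mice 3, 5 and 9 of the ketamine group. All ketamine mice were above saline mice 1 and 6 and below saline mouse 10, and the log2 fold change was 0.77 (95% confidence interval -0.39 to 1.93, adjusted p = 0.999 by limma). This was the largest of the 36 by limma. However, edgeR gave 0.52 for C4b, 0.70 for Lyz2 and -0.91 for C3, and DESeq2 gave 0.51, 0.68 and -0.94. Without saline mouse 10 the limma value of C4b was 1.38, and it was at least 0.38 with any single mouse left out. Gfap, the filament protein of astrocytes, had 2209, 1996 and 10460 normalized counts in the saline group and 4293, 3685 and 6395 in the ketamine group, so it was likewise highest in mouse 10 and then in mouse 9. Of 7 reactive astrocyte genes tested, 4 were higher with ketamine, at a median log2 fold change of 0.17 and a summed level from 4193 to 13470 in saline and from 5811 to 9835 in the ketamine group. That median was -0.01 without ketamine mouse 9 and 0.01 without saline mouse 6. Whether astrocytes had a part in the level of C4b was not tested. C4a, a near copy of C4b, had a mean of 42.3 normalized counts, and 0% of the 100-base windows of the C4b transcript occur in it.

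C3, the central component on which the complement pathways converge, was detected at a low level. It had 5.75, 1.93 and 43.9 normalized counts in the saline group and 16.6, 3.76 and 6.35 in the ketamine group, and was chosen after its values were seen. Saline mouse 10 carried most of the signal, and the interval of the log2 fold change, from -2.61 to 2.26, leaves its direction undetermined. Choroid plexus markers, which were chosen after seeing the data, were also highest in mouse 10 for 5 of 7 genes tested, with a summed level of 3238 normalized counts there, 139 and 241 in the other saline mice and from 262 to 851 in the ketamine group. Ttr, the transthyretin gene that defines that tissue, had 2421 normalized counts in mouse 10 and at most 118 in any other mouse. Their part in the level of C3 was not tested.

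TREM2 is a lipid receptor of microglia that signals through TYROBP (DAP12), an adaptor with an ITAM motif, and Fcer1g encodes a related adaptor for Fc receptors. Of 5 such genes 3 were higher and 2 lower with ketamine, at a median log2 fold change of 0.11, and of -0.10 without mouse 9. Inpp5d, the phosphatase SHIP1 that restrains this signalling, had 579.5, 558 and 485 normalized counts in the saline group and 484.5, 519 and 378 in the ketamine group. The groups overlapped, with mouse 9 lowest and a log2 fold change of -0.24 (95% confidence interval -0.64 to 0.16, adjusted p = 0.999 by limma). Fcer1g had 139.8, 138 and 164 normalized counts in the saline group and 154, 151 and 248 in the ketamine group, a log2 fold change of 0.28 (interval -0.27 to 0.84) that was 0.05 without mouse 9. Ketamine mice 3 and 5 were within the saline range and mouse 9 was above it. Trem2 had a log2 fold change of -0.07, Tyrobp one of 0.14 and Fcgr3, an activating Fc receptor for IgG, one of 0.11, and each was highest in mouse 9. Without that mouse these 3 were at -0.27, -0.13 and -0.04. Of the 100-base windows of the Fcgr3 transcript, 3.53% occur in Fcgr2b.

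Among 4 genes of the lysosome and of phagocytosis, 2 were higher and 2 lower with ketamine, at a median log2 fold change of 0.17 (-0.09 without mouse 9), and for 1 of each the groups did not overlap. Cd68 (ENSMUSG00000018774), a lysosomal membrane glycoprotein of macrophages, lies on chromosome 11 (mm9, minus strand) between 69477715 and 69479655. It had 203, 175 and 189 normalized counts in the saline group and 227, 232 and 285 in the ketamine group. Each ketamine mouse was above the highest saline mouse, and the log2 fold change was 0.39 (95% confidence interval -0.0074 to 0.78, adjusted p = 0.865 by limma, 0.799 by edgeR and 0.790 by DESeq2). It was between 0.28 and 0.45 when any single mouse was left out. Mpeg1, which encodes the pore-forming protein perforin-2 of macrophages, had 1058, 988 and 1030 normalized counts in the saline group and 951, 924 and 775 in the ketamine group. Its log2 fold change was -0.22 (95% confidence interval -0.53 to 0.09, adjusted p = 0.999 by limma), and -0.13 without mouse 9. The other ketamine mice were under the saline range by smaller margins.

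Ctss had 1550, 1539 and 2170 normalized counts in the saline group and 1628, 1396 and 2057 in the ketamine group, with a log2 fold change of -0.05 (interval -0.53 to 0.43). Mice 10 and 9 were highest, 1 in each group. Lyz2, the lysozyme of macrophages, was chosen after its values were seen. It had 182, 179 and 193 normalized counts in the saline group and 202, 158 and 525 in the ketamine group, so that mouse 9 was 2.87 times the mean of the other 5. The log2 fold change was 0.47 (95% confidence interval -0.51 to 1.45, adjusted p = 0.999 by limma), and -0.05 without mouse 9. Lyz1, its near copy, had a mean of 0.30 normalized counts, and 1.98% of the 100-base windows of the Lyz2 transcript occur in it.

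Toll-like receptors recognise microbial and endogenous ligands, and of the 4 genes of this group 3 were higher and 1 lower with ketamine, at a median log2 fold change of 0.07. That median was -0.09 without ketamine mouse 9 and -0.005 without saline mouse 6. Tlr7, the endosomal receptor for single-stranded RNA, had 109, 106 and 109.8 normalized counts in the saline group and 88.1, 95.02 and 89.7 in the ketamine group. Every ketamine mouse was under every saline mouse, with a log2 fold change of -0.25 (95% confidence interval -0.66 to 0.16, adjusted p = 0.999 by limma) that lay between -0.28 and -0.23 when any single mouse was left out. Unc93b1, the chaperone that carries Tlr7 to the endosome, had 418, 394 and 422 normalized counts in the saline group and 396, 423 and 488 in the ketamine group, a log2 fold change of 0.08. Ketamine mice 5 and 9 were above every saline mouse and mouse 3 was above saline mouse 6 only. Tlr2, a surface receptor for lipoproteins, was low, with 24.5 to 48.9 normalized counts over the 6 mice, and Ly86, which encodes MD-1, the secreted partner of a Toll-like receptor homologue, had a log2 fold change of 0.05 that was -0.17 without mouse 9.

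Ketamine mouse 9 held many of the extreme values in these genes. Without it, the log2 fold change took the other sign for 16 of the 36, and without saline mouse 10 for 6. It was the highest of the 6 mice for 16 of the 36 genes, beside 29.4% of all genes tested, and the lowest for 8, beside 29.1% of all genes. Saline mouse 10 was the highest for 10, beside 14.1% of all genes. The 36 genes together took 0.0674%, 0.0660% and 0.0810% of all normalized counts in the saline group and 0.0725%, 0.0693% and 0.0854% in the ketamine group. Mice 10 and 9, 1 in each group, had the highest shares.

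The position of mouse 9 varied with the length of the transcript. Over all genes tested, its median log2 level relative to the median of the 6 mice was 0.38 for transcripts of up to 1000 bases and -0.52 for those over 6000 bases. Among the 36, 12 had transcripts of up to 2000 bases, and 11 of these were highest in mouse 9, beside 54.1% of all genes of that length. They include C1qa, C1qb, C1qc, Tyrobp, Fcer1g, Cd68, Aif1 and Lyz2. Of 17 genes with over 2000 and up to 4000 bases, 5 were highest in mouse 9 (28.2% of all such genes) and 4 lowest. Of 7 genes over 4000 bases, 0 were highest in mouse 9 (7.32% of all such genes) and 4 were lowest. For the 12 short genes the median log2 level in mouse 9, relative to the median of the 6 mice, was 0.61, beside 0.26 for all genes of that length, and 0.22 after a smooth trend on length was removed from each library. With that trend removed, an alternative added after seeing the data, mouse 9 was highest for 13 of the 36 and lowest for 10.

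**Figure D4:**
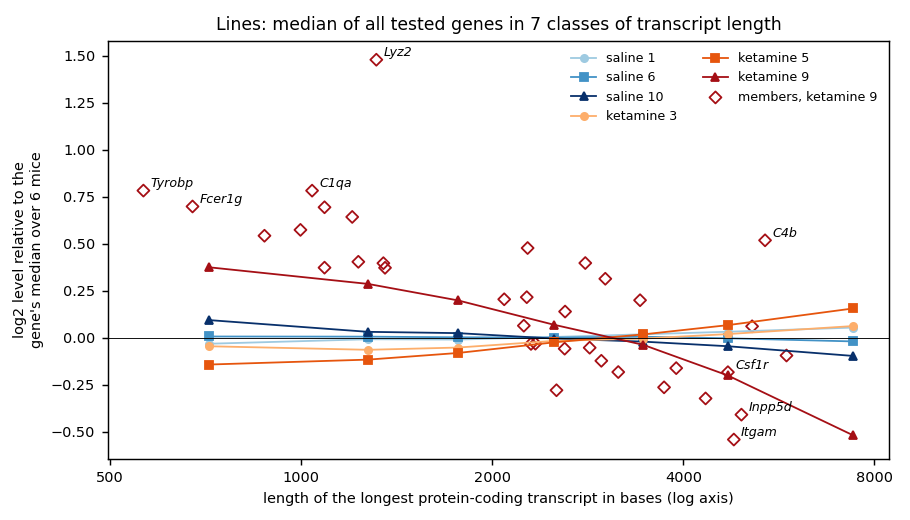
Log2 level in each mouse relative to the gene's median over the 6 mice (vertical axis) against transcript length in bases (log axis). Lines join the medians of all genes tested in 7 classes of length, 1 line for each mouse, and open diamonds are the 36 genes in ketamine mouse 9. The line of mouse 9 runs from 0.38 for the shortest class to -0.52 for the longest, and most of the short genes, Lyz2 above all, lie over it.

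Markers of other macrophages, of blood and of the meninges were also highest in mouse 9. Of 10 border-associated macrophage markers tested, 8 were highest there. The list had a median log2 fold change of 0.33, which was 0.15 without mouse 9, and its summed level was 1361 normalized counts in mouse 9, from 909 to 1203 in saline mice, and 1087 and 1211 in ketamine mice 3 and 5. Cd163, a scavenger receptor that defines these cells, had 34.5, 35.7 and 18.7 normalized counts in the saline group and 41.1, 40.5 and 49.9 in the ketamine group. Hbb-b2 and Hba-a1, globin genes of red cells, had 4632 and 1651 normalized counts in mouse 9 and at most 1044 and 368 in any other mouse. Of the 18 blood markers matched, 5 were tested, with a median log2 fold change of 0.33 that was -0.04 without mouse 9. These 5 summed to 6548 in mouse 9, to between 1110 and 1461 in saline mice, and to 989 and 921 in ketamine mice 3 and 5. The neutrophil genes S100a8 and S100a9 were below the minimum, with 10.9 and 27.2 normalized counts in mouse 9 and at most 5.79 elsewhere, and Cd3e and Ms4a1, which define T and B cells, had at most 5.49. For 9 meningeal and fibroblast markers, chosen after seeing the data, 8 were highest in mouse 9, all 9 were higher with ketamine at a median log2 fold change of 0.42, and the sum was 7358 in mouse 9, against 2775 to 4350 in the other mice. The part of these cells in the values of mouse 9 was not tested.

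The remaining genes of the same pathways were examined from lists that do not overlap the 36, and limma and edgeR called 0 of them in either direction. Of 37 other microglia genes tested, 17 were higher and 20 lower with ketamine, at a median log2 fold change of -0.02, and DESeq2 called 1, Sall3, which was higher in ketamine (adjusted p = 0.00275 by DESeq2, 0.356 by limma). Sall3 is a zinc finger transcription factor and had 154, 142 and 183 normalized counts in the saline group and 278, 379 and 573 in the ketamine group. Sall1, a related factor that holds microglia in their resting state, had 514, 509 and 769 normalized counts in the saline group and 910.3, 969 and 1506 in the ketamine group, with an adjusted p of 0.573 by limma and 0.0904 by DESeq2. For both genes every ketamine mouse was above every saline mouse, and mouse 9 was the highest. The same held for the mean level of the olfactory bulb markers (2.26, 1.55 and 3.79 in ketamine mice 3, 5 and 9). In those markers mouse 3 was above mouse 5, while in Sall3 and Sall1 it was below. The part of that tissue in the levels of Sall3 and Sall1 was not tested. Spi1 had a log2 fold change of 0.17.

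Ligands of the microglial receptors were 9 genes with a median log2 fold change of 0.01, with 5 higher and 4 lower. Cx3cl1, the fractalkine that binds Cx3cr1, had a log2 fold change of -0.18, while Csf1 and Il34, the ligands of Csf1r, had -0.03 and -0.04. Of these 9, DESeq2 called 1. Cd24a, a sialoglycoprotein that binds Siglec receptors, had 141, 110 and 213 normalized counts in the saline group and 414, 259.6 and 679.8 in the ketamine group (adjusted p = 0.0176 by DESeq2 and 0.502 by limma). Every ketamine mouse was above every saline mouse. The ketamine mice stood in the order 9, 3 and 5, as they did in the olfactory bulb markers (3.79, 2.26 and 1.55), whose part in the level of Cd24a was not tested. Leaving out mouse 9 put the median of the 9 ligand genes at -0.01.

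In the rest of the complement system, 33 of 46 genes matched were tested, and 14 were higher and 19 lower with ketamine, at a median log2 fold change of -0.10 (0.01 without saline mouse 10) and 0 called by DESeq2. Those with the smallest p were neuronal genes with complement-like domains or a role at synapses. Sez6, a membrane protein with complement-control domains, had 4640, 4565 and 3750 normalized counts in the saline group and 8366, 8701 and 5318 in the ketamine group (log2 fold change 0.76, adjusted p = 0.579 by limma and 0.0612 by DESeq2). Nptx1, a neuronal pentraxin, had 11140, 9944 and 12100 normalized counts in the saline group and 5608, 8937 and 4574 in the ketamine group (log2 fold change -0.85, adjusted p = 0.617 by limma). Srpx2, a secreted protein that binds C1q, had 36.4, 23.2 and 42.8 normalized counts in the saline group and 17.6, 17.9 and 6.35 in the ketamine group (log2 fold change -1.31, adjusted p = 0.773 by limma). Ketamine mice 3 and 5 were highest for Sez6 and in the mean level of the striatal markers (3.14 and 2.11). Nptx1 was lowest in ketamine mice 3 and 9, as was the mean level of cortical excitatory markers (-0.84 and -0.55). Whether the share of these cells had a part in either gene was not tested. For the receptor C3ar1 the log2 fold change was 0.34.

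Genes that rise in microglia in disease models were not called either. Of 22 disease-associated genes tested, 14 were higher and 8 lower with ketamine, at a median log2 fold change of 0.16 that was -0.0012 without mouse 9, and 12 of the 22 were highest in that mouse. Those with the smallest p were Lgals3bp, Timp2 and Gpnmb, with log2 fold changes of 0.59, 0.44 and 0.93 and adjusted p-values of 0.7605, 0.8598 and 0.865 by limma. Itgax and Clec7a, which define this state, were at most 16.6 normalized counts in any mouse, and Cst7 was at most 13.6. Of 28 cytokine and inflammasome genes, 18 were tested, with 10 higher, 8 lower and a median log2 fold change of 0.02 (-0.02 without mouse 9). Il1b, Tnf, Il6, Il10 and the chemokines Ccl2, Ccl3, Ccl4, Ccl5 and Cxcl10 were below the minimum. Ptgs2, the inducible cyclooxygenase, had 358, 475 and 649 normalized counts in the saline group and 171, 326 and 353 in the ketamine group, so the groups did not overlap (log2 fold change -0.83, adjusted p = 0.828 by limma). Of 19 other Toll-like receptor and adaptor genes, 12 were higher and 7 lower, with a median of 0.05 (-0.03 without saline mouse 6), and the smallest p belonged to Tlr5, Tlr4 and Irak2.

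**Figure D5:**
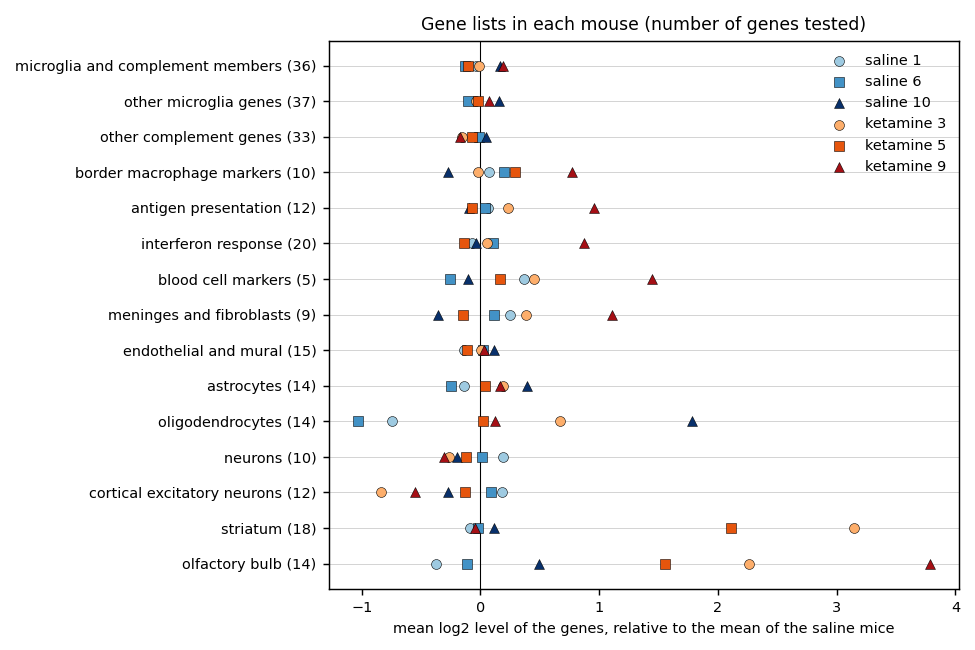
Mean log2 level of the genes of each list in each mouse, relative to the saline mean, with the number of genes tested in brackets. The 36 genes lie between -0.13 and 0.19 in the 6 mice. Interferon, antigen presentation, border macrophage, blood and meningeal lists are highest in ketamine mouse 9, oligodendrocytes in saline mouse 10, striatal genes in ketamine mice 3 and 5 and olfactory bulb genes in all ketamine mice.

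The mean log2 level of the 36 genes was -0.03, -0.13 and 0.16 in mice 1, 6 and 10 of the saline group and -0.01, -0.11 and 0.19 in mice 3, 5 and 9 of the ketamine group, so its groups overlapped. Striatal and olfactory bulb lists, by contrast, had median log2 fold changes of 1.59 over 18 genes and 2.62 over 14 genes, of which DESeq2 called 5 and 8 higher in ketamine. The order of the mice in the 36 genes differed from that in the striatal list, since mice 3 and 5 stood highest in that list and within the saline range here. In the olfactory bulb list the ketamine mice had the order 9, 3 and 5, the same as in the 36 genes, and mouse 9 was the highest of all 6 in both. The part of either tissue in the values of the 36 genes was not tested. Cortical excitatory and pan-neuronal markers had medians of -0.54 over 12 genes and -0.27 over 10, and DESeq2 called 1 of the former lower, Neurod6. Astrocyte markers had a median of 0.15 over 14 genes, oligodendrocyte precursor markers 0.13 over 8, endothelial and mural markers -0.06 over 15 and choroid plexus markers -0.20 over 7. The oligodendrocyte list had a median of 0.27, with 14 of 14 genes higher, and its mean level ran from -1.03 to 1.78 within the saline mice alone. Without saline mouse 6, the medians were -0.04 for astrocyte, -0.03 for oligodendrocyte precursor and -0.25 for oligodendrocyte markers, and without saline mouse 10 that of choroid plexus markers was 0.59.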

How the data were processed

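The PLc of 3 saline and 3 ketamine mice was measured by RNA sequencing, with groups and mouse numbers taken from the sample labels. Per the authors' methods, reads were paired-end, TopHat2 2.0.11 placed them on mm9, HTSeq gave gene counts and DESeq2 was used for expression. The authors deposited a signal, that is each gene's count over the library's size factor, to 2 decimals. The annotation and the strand setting are not given in the sources used here. Dividing by the smallest step gave whole reads for 100.0% of values in each library (within 0.1 of a read). Totals were 26273436 to 32643726 reads assigned to genes per library. Intervals cover the spread between these mice.

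Log2(normalized count + 1) was compared in 16127 genes, those whose mean reached 10 normalized counts, with limma 3.58.1 (trend in the prior variance) in R 4.3.3, two-sided with Benjamini-Hochberg adjustment over all genes and a threshold of 0.05. On this scale the change of low genes is understated. Recovered reads were also tested with edgeR 4.0.16 (quasi-likelihood) and DESeq2 1.42.0. An exact permutation test was run for single genes. No set test was run.

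Coordinates and transcript lengths are from GENCODE M1 (mm9), which held 37205 of the 37620 identifiers, and the length used is that of the longest protein-coding transcript, or of all exons together where a gene has none. Promoter sequences are from RefSeq on GRCm38.p6.

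The 36 genes and all lists were chosen with earlier results of these data known, and the lists of choroid plexus, meningeal and fibroblast, and reactive astrocyte genes were added after the data were seen. Genes given for every mouse are those that any tool called, those whose groups do not overlap, and in each role group the 2 with the smallest limma p and the one with the highest mean, and in other lists up to 3 with the smallest p. Some genes that the rule would name are not reported here. Others are marked, or are given as background or as defining markers of a cell type. Alternatives were pseudocounts of 0.1 and 5, no filter and a minimum of 100, recomputed size factors, upper-quartile scaling, no trend, edgeR, DESeq2, each mouse left out, and ketamine mice 3 and 5 left out. Removal of a length trend (lowess, span 0.3) was added after seeing the data.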

Additional observations from a re-analysis of the deposited data

How the results depend on the processing

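Of the 36 genes, 0 were called under any of the 17 alternatives run. The count of all genes called was 182 with DESeq2 and between 0 and 1 with each mouse left out, with 1 call without ketamine mouse 5 and 1 without ketamine mouse 9, and it was 0 under the others. The median log2 fold change of the 36 genes, -0.01, lay between -0.09 (without ketamine mouse 9) and 0.05 with each mouse left out. It was 0.22 without ketamine mice 3 and 5, where mouse 9 stands alone for its group and is assumed to vary like the saline mice. Over the 19 genes named by rule, 305 of 322 values kept the direction of the reported one, none passed the threshold, and 17 changed sign, all in 8 genes. Without ketamine mice 3 and 5, Irf8 was at -0.061, Aif1 at 0.51 and Ctss at 0.25. Aif1 was at 0.0068 with edgeR and Laptm5 at 0.0093 with upper-quartile scaling. With each mouse left out in turn, the log2 fold change ran from -0.11 to 0.015 for Csf1r, from -0.065 to 0.051 for Irf8, from -0.37 to 0.14 for Aif1, from -0.074 to 0.062 for Laptm5, from -0.092 to 0.32 for C1qa, from -0.16 to 0.23 for C1qb, from -0.20 to 0.11 for Ctss and from -0.0041 to 0.14 for Unc93b1. Csf1r, C1qa, C1qb, Laptm5 and Unc93b1 changed sign without ketamine mouse 9, Laptm5 and Ctss also without saline mouse 10, Irf8 without ketamine mouse 3 or saline mouse 6, Aif1 without ketamine mouse 3 or 5 and Ctss without ketamine mouse 5. The cause was not tested. Tlr7 has no value under the minimum of 100, which its mean does not reach. No paired analysis was possible because the saline and ketamine mice share no number. Depth limits C3, at 2 to 40 reads in a library, and Tlr2, at 26 to 53 reads.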

Other observations

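Interferon response genes, which follow type I interferon signalling in microglia and other cells, gave no call by limma, edgeR or DESeq2 and stood apart in ketamine mouse 9. Of 20 such genes, all tested, 17 were higher and 3 lower with ketamine, at a median log2 fold change of 0.33, and 18 of the 20 were highest in mouse 9. Ifit1, an interferon-induced RNA-binding protein, had 95.8, 88.8 and 94.4 normalized counts in the saline group and 85.2, 79.96 and 261 in the ketamine group. Isg15, a ubiquitin-like modifier induced by interferon, had 38.3, 50.2 and 34.04 normalized counts in the saline group and 33.3, 33.9 and 116 in the ketamine group. Ketamine mice 3 and 5 were thus below all saline mice for both genes, mouse 9 was above them, and the median of the list was -0.03 without it. These 2 were chosen after their values were seen. By the smallest p, the list gave Oas1a, Ifih1 and Irf9, with log2 fold changes of 0.83, -0.31 and 0.35 (adjusted p = 0.999 for each by limma).

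Antigen presentation genes had a similar order. Of 12 tested, 10 were higher with ketamine, at a median log2 fold change of 0.40, which was 0.09 without mouse 9, and 10 were highest in that mouse. H2-Ab1, a chain of MHC class II, had 35.4, 28.95 and 20.9 normalized counts in the saline group and 48.9, 40.5 and 90.6 in the ketamine group, so the groups did not overlap (log2 fold change 0.9971, adjusted p = 0.796 by limma). Tap2 and H2-Aa followed in order of p, with log2 fold changes of 0.47 and 0.83. No gene of this list was called by limma, edgeR or DESeq2.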
